A study of Oryza sativa with 4 samples.

Results

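The type-A response regulators of rice, the RR genes that are switched on first when cells perceive cytokinin, were examined in flag leaf blades of the d1 mutant and of its wild type. The family was taken as 9 loci named RR1 to RR7, RR9 and RR10 by a fixed list of identifiers, out of 35667 rows in the gene table. RR1 is OS04G0442300, RR2 is OS02G0557800, RR3 is OS02G0830200, RR4 is OS01G0952500, RR5 is OS04G0524300, RR6 is OS04G0673300, RR7 is OS07G0449700, RR9 is OS11G0143300 and RR10 is OS12G0139400. The list was not drawn from the measured values. A reference table of rice gene symbols names 8 of the 9 (all but RR3), each on the chromosome that its identifier gives, but it does not link the names to the identifiers.

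One group was d1, plants carrying the allele d1-1 of RGA1, which encodes the alpha subunit of a heterotrimeric G protein, and the other was WT, the cultivar TC65. Each genotype had 2 libraries, made from flag leaves cut where the blade was widest, and all plants were grown in a greenhouse with 16 h of light, at 30 °C by day and 25 °C at night. Plant age is labelled as 2 months in one field and as 100 days in another. A single mutant allele was used, and a leaf blade holds many cell types, so fewer cells of a type and less RNA per cell cannot be told apart.

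Cytokinins are hormones of cell division, leaf greening and delayed senescence. Receptor histidine kinases pass a phosphate by way of small phosphotransfer proteins to type-B response regulators, which bind DNA and switch on the type-A genes. Type-A proteins consist of little more than the receiver domain that accepts the phosphate, and they damp the pathway that induces them. Their transcripts are therefore widely used as a readout of cytokinin signalling.

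The levels are FPKM, in which fragments are divided by the length of the transcript and by sequencing depth, so they can be compared between genes. The authors deposited 1 FPKM value per genotype, combined over its libraries, so no spread between libraries can be given. Per the labels, each library was read to about 40000000 reads of 150 bp. The median level of the 23672 tested genes was 7.41 FPKM in d1 and 7.80 FPKM in WT. Every p-value and q-value below is from the authors' deposited table, whose layout and processing notes point to Cuffdiff, and a gene is called where q is under 0.05. The locus entered for RGA1 from general knowledge stood at 17.3 FPKM in d1 and 20.7 FPKM in WT. It was not called (q = 0.296 in the authors' deposited table), and a value over the whole locus does not check the lesion. A further 3 loci were entered in the same way as rubisco small subunits, whose transcripts are abundant in leaf blades. They stood between 3301 and 35243 FPKM in d1 and between 1757 and 21644 FPKM in WT. Their log2 ratios of d1 over WT were between 0.70 and 1.35, and the authors' deposited table calls 1 of the 3 higher in d1 with q = 0.0161. The part of this difference in the values of the family was not tested.

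RR6 was lower in d1, and it was the only one of the 7 tested family members that was called. RR6 stood at 23.2 FPKM in d1 and 44.6 FPKM in WT, a log2 ratio of d1 over WT of -0.94, or a 1.92-fold lower level in d1. In the authors' deposited table RR6 has q = 0.000186 and p = 5e-05, the smallest p listed there, which 1342 genes share. In rice, plants made to express RR6 in excess are dwarfed and form poor panicles, and the gene is regarded as a negative regulator of cytokinin signalling.

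No member was called higher. Of the tested genes at large, 7.24% were called higher in d1 and 12.1% were called lower, so 1 lower call among 7 tested members is close to the share over all tested genes. At an unadjusted p under 0.05 in the authors' deposited table, 0 members were higher and 1, RR6, was lower. A Benjamini-Hochberg adjustment recomputed from the deposited p-values gave the same counts for the family, 0 higher and 1 lower, where 5.09% and 9.17% of all tested genes were called higher and lower. The recomputed adjusted p of RR6 over all genes tested by Cuffdiff was 0.000882, larger than its deposited q of 0.000186. The deposited q-values are thus the more lenient, and the set of tests behind them is not known here.

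**Figure D1:**
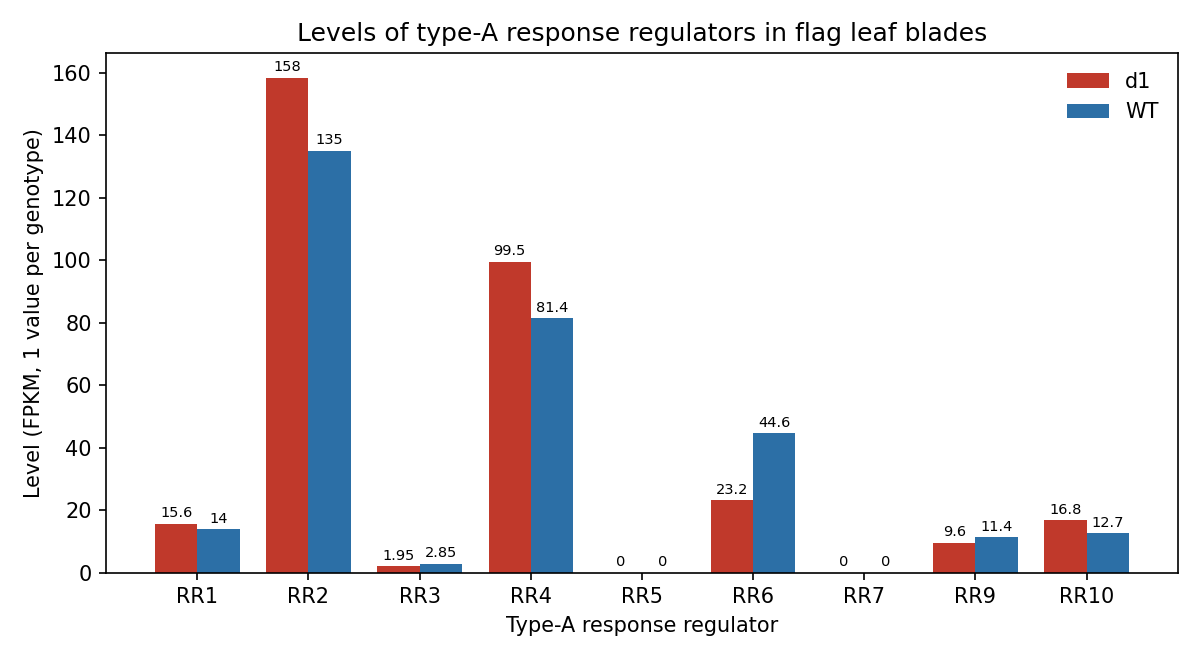
Level of each type-A response regulator in FPKM, with d1 to the left of WT; each bar is the authors' single value for a genotype, and no error can be drawn. RR6 is at 23.2 FPKM in d1 and 44.6 FPKM in WT, RR2 and RR4 are the tallest bars in both genotypes, and RR5 and RR7 are listed at 0.

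RR2 and RR4 were the predominant members. RR2, which the homeobox protein WOX11 represses during crown root formation in rice, stood at 158 FPKM in d1 and 135 FPKM in WT, a log2 ratio of 0.23 (q = 0.346 in the authors' deposited table). RR4 stood at 99.5 FPKM in d1 and 81.4 FPKM in WT, a log2 ratio of 0.29 (q = 0.211 in the authors' deposited table). Both values were higher in d1 but neither passed the test. Together the pair made up 79.3% of the summed FPKM of the family in d1 and 71.7% in WT. Their own ratio was nearly the same in both genotypes, RR4 reaching 0.629 of the RR2 level in d1 and 0.603 in WT.

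RR1, RR9 and RR10 formed a middle range. RR1, whose protein pairs with the flowering activator Ehd1 in rice, stood at 15.6 FPKM in d1 and 14.0 FPKM in WT, a log2 ratio of 0.16 (q = 0.861 in the authors' deposited table). RR10 stood at 16.8 FPKM in d1 and 12.7 FPKM in WT, a log2 ratio of 0.40 (q = 0.148 in the authors' deposited table), the largest positive ratio of the family. RR9 stood at 9.60 FPKM in d1 and 11.4 FPKM in WT, a log2 ratio of -0.25 (q = 0.447 in the authors' deposited table). None of these 3 members passed the test.

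RR9 and RR10 lie on chromosomes 11 and 12, whose ends are copies of each other, and the pair is known for nearly identical sequences and for limiting salt tolerance in rice. Short reads from one can be assigned to the other, so their separate values and opposite signs are uncertain. RR10 reached 1.75 times the RR9 level in d1 and 1.12 times in WT. Added together they stood at 26.4 FPKM in d1 and 24.1 FPKM in WT, a log2 ratio of 0.13.

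RR3, RR5 and RR7 were scarce or not seen. RR3, which lowers cytokinin sensitivity when expressed in excess in rice, stood at 1.95 FPKM in d1 and 2.85 FPKM in WT. Its log2 ratio of -0.55 did not pass the test (q = 0.543 in the authors' deposited table). RR2 exceeded RR3 by 81.2 times in d1 and 47.4 times in WT. RR5, for which the same effect of excess expression has been described, and RR7 were listed at 0 FPKM in both genotypes and carry no test in the table.

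From highest to lowest, the order of levels in d1 was RR2, RR4, RR6, RR10, RR1, RR9 and RR3. In WT it was RR2, RR4, RR6, RR1, RR10, RR9 and RR3, so only RR1 and RR10 changed places. These neighbours stood at 15.6 and 16.8 FPKM in d1 and at 14.0 and 12.7 FPKM in WT, and without a spread between libraries no step of the order could be tested. RR2 was above 96.2% of the tested genes in d1 and above 95.3% in WT. RR6 was above 75.8% of the tested genes in d1 and above 86.3% in WT. RR3 was above 24.8% in d1 and 29.1% in WT.

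**Figure D2:**
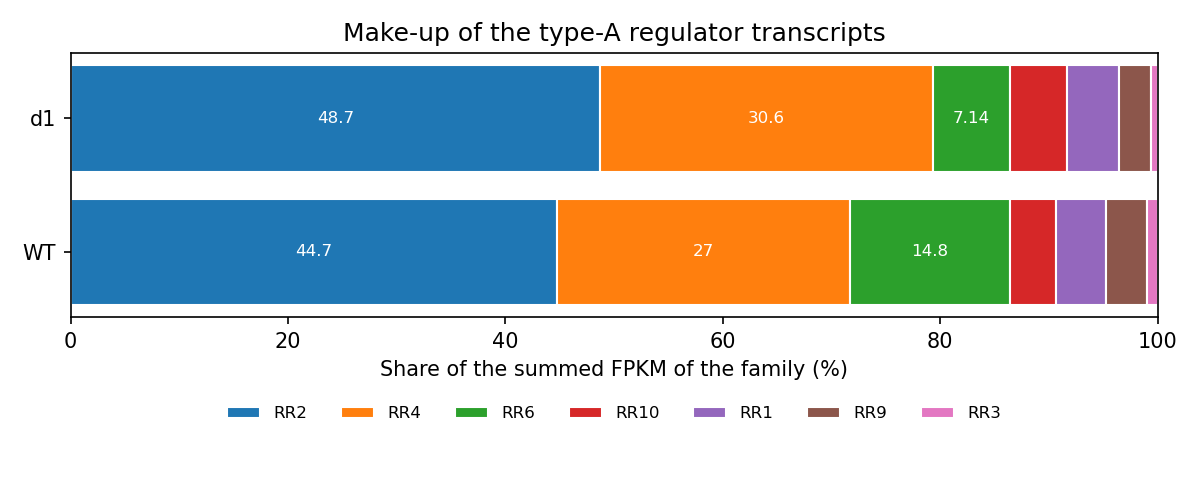
Share of the summed FPKM of the family taken by each tested member, in percent, with d1 above WT; each bar adds to the whole family, and numbers are printed for shares above 6%. RR6 takes 7.14% in d1 and 14.8% in WT, while RR2 and RR4 take 48.7% and 30.6% in d1 and 44.7% and 27.0% in WT.

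RR6 took a smaller share of the family in d1. It contributed 7.14% of the summed FPKM in d1 and 14.8% in WT. RR6 reached 0.233 of the RR4 level in d1 and 0.548 in WT, and 0.147 of the RR2 level in d1 and 0.330 in WT. These ratios are taken within a genotype, so they do not depend on how the genotypes were scaled to each other, but they were not tested. The summed level of the family was 325 FPKM in d1 and 302 FPKM in WT, a log2 ratio of 0.11. The difference of -21.4 FPKM in RR6 stood beside differences of 23.3 FPKM in RR2 and 18.1 FPKM in RR4, neither of which was called. Unlike the ratios within a genotype, these differences and sums depend on the scaling between genotypes. With the FPKM sums of all genes set equal, the log2 ratio of the summed level of the family was -0.16. Without RR6, the other members summed to 302 FPKM in d1 and 257 FPKM in WT, a log2 ratio of 0.23.

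The signs of the RR1 and RR2 ratios depended on the scaling, while those of the other tested members did not change under the scalings tried. With the deposited values, 4 of the 7 tested members had a ratio above 0 and 3 had one below 0. The median log2 ratio of the 7 was 0.16, against -0.02 over all tested genes. Over all tested genes, split into 10 equal groups by mean level, the median ratio rose with level. It was -0.35 in the lowest group and 0.08 in the top group. Of the tested members only RR3 fell below the sixth group, and the part of level in the family median was not tested. The FPKM values of all genes sum to 1381426 in d1 and 1144962 in WT, a log2 ratio of 0.27, and setting these sums equal takes that amount off every gene. RR1 then became -0.11, RR2 -0.04 and RR4 0.02, so RR4 kept its sign only narrowly. By this scaling 2 members were above 0 and 5 below. The median of the family became -0.11 and that of all tested genes -0.29. The distance of 0.18 between these medians is fixed by construction, since the same amount is taken off every gene. RR6 was below 0 under each scaling, at -0.92 when centred on the median gene and at -1.21 with equal sums.

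**Figure D3:**
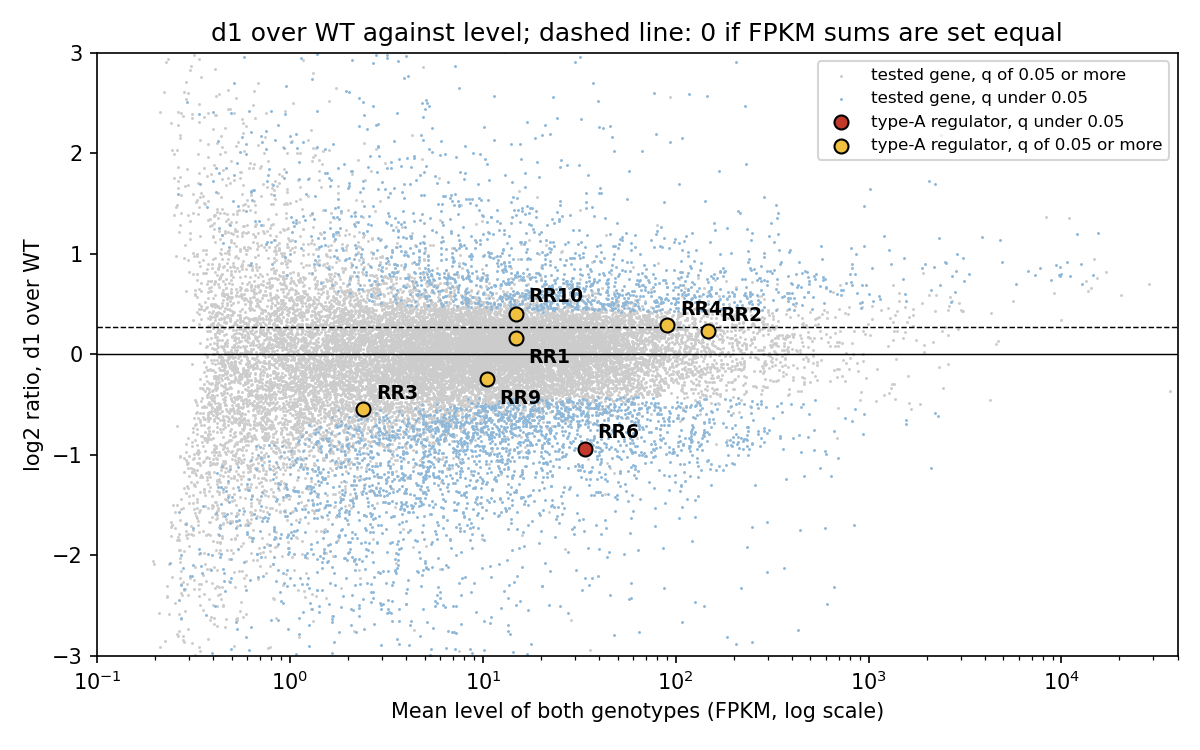
Log2 ratio of d1 over WT against the mean level of both genotypes in FPKM (log scale), for the tested genes as small dots and the 7 tested type-A response regulators as large named points; ratios beyond 3 in size and levels outside the axis are not shown. RR6, at -0.94, is the member drawn as called, and the other members lie between -0.55 and 0.40; the solid line marks 0 and the dashed line 0.27, where 0 would lie with equal FPKM sums.

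How small a ratio the table could call at each level was read from 10 equal groups of tested genes ordered by mean level. RR6 fell in the ninth group, 29.4 to 60.6 FPKM, in which 12.2% of 2367 genes were called lower. In that group 117 genes, or 4.94%, had a ratio as low as that of RR6 or lower. RR2 and RR4 fell in the top group, where the smallest ratio called higher was 0.427, and both lay below it. RR1 and RR10 fell in the seventh group, where the smallest ratio called higher was 0.44, just above the 0.40 of RR10. For RR9, in the sixth group, the smallest fall called was 0.43 in size. RR3, in the third group, had a ratio about as large as the smallest fall called there, 0.54 in size. The members that were not called thus had ratios below or close to the smallest called at their level, and the table does not show that they were unchanged. The smallest called ratio is that of a single gene, and the typical called ratio was larger in size. The median of those called higher was 0.70 in the top group and 0.77 in the seventh. The median of those called lower was -0.88 in the sixth group and -1.36 in the third.

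Other thresholds and filters were applied to the same values. RR6 was called lower with the deposited q under 0.01 (7.86% of tested genes called lower). It was also called lower with a minimum of 1 FPKM (10.2%) and without repeated identifiers (9.11%). For both of these filters the Benjamini-Hochberg adjustment was recomputed over the genes kept. Their shares therefore stand beside the 9.17% called lower by the recomputed adjustment without a filter. RR6 was not called when a change of at least 2-fold was asked for along with a deposited q under 0.05 (6.28%), which it narrowly missed. No member was called higher under these rules, which called higher 4.11%, 5.72%, 5.09% and 2.70% of tested genes in the same order.

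The loci beside each member were examined as well, taking the 5 nearest tested identifiers on each side. Around RR6, 1 of 10 neighbours was called lower, 1 was called higher and 8 were not called, and their median log2 ratio was -0.01. Around RR4, 6 of 10 neighbours were called higher and none lower, with a median log2 ratio of 0.64, while RR4 itself was not called. Over all 7 tested members, 13 of 70 neighbours (18.6%) were called higher and 2 (2.86%) were called lower, against 7.24% and 12.1% of all tested genes. The part of these neighbourhoods in the members' own values was not tested.

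Other genes of the cytokinin pathway were covered by a list of 45 loci for receptors, phosphotransfer proteins, type-B regulators and enzymes of cytokinin synthesis and breakdown. The identifiers were entered from general knowledge and no source used here annotates them, so they are given as a whole and none is named. All were found in the table and 32 had been tested. Of these, 4 (12.5%) were called higher in d1, 4 (12.5%) were called lower and 24 were not called, where 7.24% of all tested genes were called higher and 12.1% lower. Their log2 ratios ran between -2.82 and 1.39 with a median of 0.04, against -0.02 over all tested genes. With equal FPKM sums these medians were -0.24 and -0.29. The recomputed adjustment left 4 higher calls and 3 lower calls, where it called 5.09% and 9.17% of all tested genes higher and lower.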

How the data were processed

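RNA from flag leaf blades of d1 and WT, 2 libraries each, was sequenced. The submitters' processing notes name the build IRGSP-1.0 and, without versions or order, Cuffdiff, Cufflinks, TopHat2, Trimmomatic and FastQC. Parameters and gene models were not given in the sources used here. As for units, the FPKM values were deposited by the authors as 1 value per genotype, so the depth behind each value is unknown. The test statistic, a signed score, and the p-value and q-value per gene were also deposited by the authors and were fitted by them across all genes. The labels call the libraries biological replicates without saying that each is a plant of its own.

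From these, log2 ratios of d1 over WT (no pseudocount), shares, ranks and a Benjamini-Hochberg adjustment over the 23672 tested genes were computed with Python 3.11.15, numpy 2.4.6 and pandas 2.3.3. The adjustment and calling steps were tested on simulated data. All 9 members are named, and other genes only where a result turns on them. The members and lists were chosen with earlier results of these data known; the groups by level and the neighbouring loci were chosen after seeing the data. Alternatives were other thresholds, scalings, pseudocounts and filters. The planned classes of the cytokinin list were not used, because no source annotates the identifiers.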

Additional observations from a re-analysis of the deposited data

How the results depend on the processing

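No paired analysis was possible because both libraries of a genotype were merged into 1 FPKM value before deposit. Leaving out a library, the replicate block and the count tests, all planned, were therefore not run. RR6 was called lower under every threshold and filter tried except the demand for at least 2-fold, under which 0 members were called lower. With equal FPKM sums, the median log2 ratio of the members became -0.11, that of their summed level -0.16, RR1 -0.11 and RR2 -0.041. The median of all tested genes became -0.29, and its distance from the family median cannot change under such a scaling. Centring on the median gene gave 0.18 for the median and 0.12 for the summed level. Adding 1 FPKM gave a median of 0.15, and counting RR9 and RR10 as 1 locus gave 0.15. Leaving out RR6, chosen after seeing the data, gave a median of 0.20 and 0.23 for the summed level. With no spread between libraries, any shift over 0.005 was counted as a move. No counting error can be set beside low values such as RR3.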
